A study of Mus musculus with 6 samples.

Results

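The genes described here encode the main secretory proteins of the seminal vesicles, and their RNA was measured in prostates. They are Svs2, Svs3a, Svs3b, Svs4, Svs5, Svs6 and Pate4, and they make up 7 of the 47719 genes listed for each mouse. They were chosen by symbol and not by a rule on their values, but with earlier results of these data known. All 7 passed the filter on low values, a mean of at least 1 FPKM over the mice, which 13818 genes passed. FPKM counts sequenced fragments after scaling for the exon length of a gene and for the mapped fragments of a library, so levels of different genes can be set side by side per length.

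The study compared prostates of B6.129S4-Trp53tm3.1Tyj/J mice that differ in the Trp53 R270H allele, to find genes whose expression depends on that allele. Wildtype mice 39 and 41 were Trp53+/+, heterozygous mice 37 and 40 were Trp53R270H/+, and homozygous mice 47 and 49 were Trp53R270H/R270H, where the numbers are those of the animals. Each of the 6 mice was irradiated over the whole body with 5 Gy at an age of about 3 months, and its prostate was taken 6 h later, so every value comes from an irradiated mouse. Each library holds prostate RNA of 1 animal. The sources used here do not give the lobes taken or how the seminal vesicles were separated from the prostate.

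Seminal vesicles are paired glands that open beside the prostate and supply much of the fluid of the ejaculate. In mice their proteins clot after mating into the copulatory plug, when Tgm4, a transglutaminase secreted by the prostate, links the clotting proteins to each other. Svs2 is the main clot protein and also coats sperm, and Svs3a and Svs3b encode further substrates of the transglutaminase. Svs4, Svs5 and Svs6 encode small secreted proteins, of which that of Svs4 is known to dampen immune responses, and Pate4, also called SVS7, encodes a small secreted protein of the Ly6 type that acts on sperm motility. Expression of these genes in the seminal vesicle depends on androgen.

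In GRCm38, GENCODE release M21 places the 6 Svs genes within 98.5 kb of chromosome 2, from 164235929 to 164334396. Svs2 (ENSMUSG00000040132), Svs3b (ENSMUSG00000050383) and Svs4 (ENSMUSG00000016998) lie on the minus strand, and Svs3a (ENSMUSG00000017003), Svs6 (ENSMUSG00000017000) and Svs5 (ENSMUSG00000017004) on the plus strand. Pate4 (ENSMUSG00000032099) lies on chromosome 9 from 35607093 to 35611941 on the minus strand, within the annotated span of Pate2 on the opposite strand. Each is a protein coding gene of 3 exons, except Svs6 with 4.

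Svs3a and Svs3b are near-identical copies of each other. The longest transcripts of Svs3a and Svs3b were identical at 93.2% of 1188 aligned bases, and 26.4% of the windows of 100 bases in Svs3a, the length of a read, also occur in Svs3b. For Svs3b the share was 27.6%. A single read from these windows cannot be assigned to 1 of both copies by its own sequence, though the other read of its pair may tell them apart. The split of their FPKM is therefore uncertain to an unknown extent. No such window was shared with another gene for Svs2, Svs4, Svs5 or Svs6, and 3.08% of the windows of Pate4 were shared with Pate2.

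Promoters of 6 of the 7 genes were matched by symbol in RefSeq (GRCm38.p6), Pate4 being without an entry. Over the 250 bases before the start, Svs3a and Svs3b were identical at 97.6% of 250 aligned bases, and Svs5 and Svs6 at 96.3% of 246, while the other pairs gave 60.9% to 71.0%. The stretches from 210 to 21 bases before the start are shown for these 4 genes, because the first pair had the same pattern of expression over the mice and the second did not. They are chr2:164289057-164289246 on the plus strand, chr2:164256664-164256853 on the minus strand, chr2:164316541-164316730 on the plus strand and chr2:164332555-164332744 on the plus strand. Each reads 5′ to 3′ towards its gene, and capitals mark AGAACA or its reverse complement TGTTCT, the core of the androgen response element, and TATAAA.
Svs3a: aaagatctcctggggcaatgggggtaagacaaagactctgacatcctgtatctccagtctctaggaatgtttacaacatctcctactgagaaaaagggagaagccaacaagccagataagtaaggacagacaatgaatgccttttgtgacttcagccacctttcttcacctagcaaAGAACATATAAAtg
Svs3b: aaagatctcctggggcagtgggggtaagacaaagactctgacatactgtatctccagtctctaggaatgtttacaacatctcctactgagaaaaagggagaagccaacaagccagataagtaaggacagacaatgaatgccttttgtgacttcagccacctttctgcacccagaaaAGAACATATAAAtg
Svs6: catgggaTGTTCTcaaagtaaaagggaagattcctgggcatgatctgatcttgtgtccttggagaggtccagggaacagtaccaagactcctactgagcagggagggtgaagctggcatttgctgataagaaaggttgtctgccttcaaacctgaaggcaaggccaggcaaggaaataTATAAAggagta
Svs5: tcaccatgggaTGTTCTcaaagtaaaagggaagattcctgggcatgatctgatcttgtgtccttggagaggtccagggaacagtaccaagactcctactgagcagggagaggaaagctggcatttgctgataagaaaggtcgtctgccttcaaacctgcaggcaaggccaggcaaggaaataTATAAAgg
AGAACA was found on either strand in 4 of the 6 promoters, at 34 to 29 bases before the start in Svs3a and Svs3b, and as TGTTCT at 203 to 198 bases in Svs6 and at 199 to 194 bases in Svs5. It occurs in 16.1% of all 32851 promoters of the table. In Svs3a and Svs3b this element runs directly into TATAAA, without overlap. TATAAA was found on the sense strand in the last 50 bases before the start in 5 of the 6, all except Svs2, and in 2.63% of all promoters. The inverted repeat of this element with 3 bases between was in 0 of the 6 and in 0.00913% of all. These matches describe letters and not bound sites.

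In 5 of the 6 mice, all except mouse 39, at least 3 of these genes were among the 20 most abundant, and their levels spread far more widely over the mice than those of most genes. Svs5 was the most abundant of all listed genes in mice 41, 37, 40 and 49. The summed FPKM of the 7 genes was 0.640% of the FPKM of all genes in wildtype mouse 39, but 8.07% in wildtype mouse 41. It was 8.95% and 9.65% in heterozygous mice 37 and 40, and 8.72% and 6.78% in homozygous mice 47 and 49, in which 3 and 1 of the genes were listed at 0. In whole tissue, fewer cells of a type and less RNA per cell cannot be told apart.

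Svs2 was at 256 and 11018 FPKM in wildtype mice 39 and 41, at 11734 and 14734 FPKM in heterozygous mice 37 and 40, and at 0 in both homozygous mice. Svs4, on the same strand, was at 1331 and 8028 FPKM in the wildtype mice, 11767 and 10140 FPKM in the heterozygous mice, and 0 and 6819 FPKM in homozygous mice 47 and 49. Svs5 was at 1731 and 24908 FPKM, 28678 and 26312 FPKM, and 0 and 23192 FPKM in the same order. Mouse 39 was thus the lowest for each of these genes among the mice with a value above 0, and mouse 47 was listed at 0 for all 3.

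Svs6 was at 28.6 and 1021 FPKM in wildtype mice 39 and 41, 903 and 392 FPKM in heterozygous mice 37 and 40, and 26147 and 178 FPKM in homozygous mice 47 and 49. Svs3a was at 7.79 and 324 FPKM, 318 and 115 FPKM, and 7321 and 46.5 FPKM in that order. Svs3b was at 5.14 and 216 FPKM, 166 and 54.1 FPKM, and 5141 and 22.3 FPKM. For these clot and small secretory proteins mouse 47 was the highest and mouse 39 the lowest, and homozygous mouse 49 lay below both heterozygous mice.

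Pate4 was at 125 and 3522 FPKM in wildtype mice 39 and 41, 3111 and 3840 FPKM in heterozygous mice 37 and 40, and 16862 and 4895 FPKM in homozygous mice 47 and 49. Both homozygous values were above the other 4. In mouse 47, Svs6 was the gene of rank 2 and Pate4 that of rank 4 among all listed genes.

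**Figure D1:**
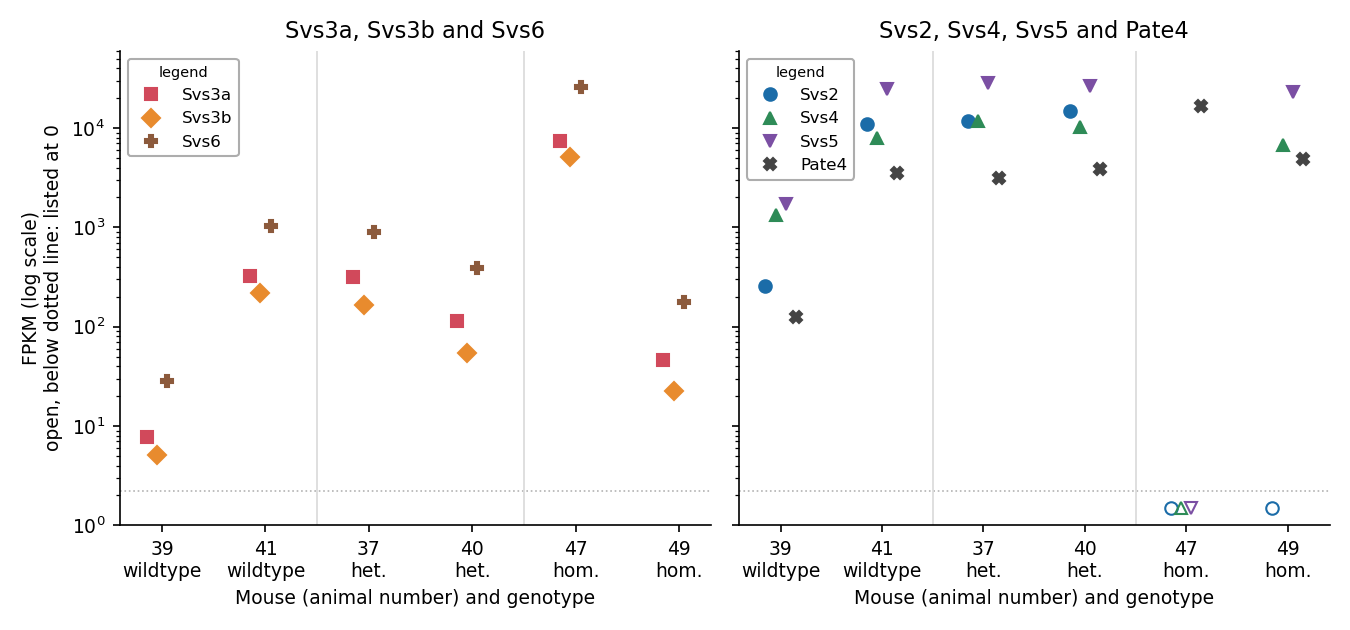
FPKM of the 7 genes in each mouse on a log axis, mice ordered by genotype, 1 symbol per gene, with values listed at 0 as open symbols under the dotted line. The left panel shows Svs3a, Svs3b and Svs6 moving together from mouse 39 to mouse 47, and the right panel shows Svs2, Svs4, Svs5 and Pate4 at like levels in mice 41, 37 and 40.

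The values of 0 stood beside very high values in other mice. Of 77 genes that reached 1000 FPKM in some mouse, 7 were listed at 0 in another, and 3 of these were Svs2, Svs4 and Svs5. The other 4 were Sbp, mt-Tv, mt-Ts1 and Gm42418, named here after their values were seen, and 6 of the 7 were listed at 0 in mouse 47. The status given with each value was OK in every row, so the status marks none of them as failed. In mouse 47 the neighbouring genes Svs3b, Svs3a and Svs6 lay between 5141 and 26147 FPKM. In mouse 49, where Svs2 was at 0, the same genes lay between 22.3 and 178 FPKM, with Svs4 and Svs5 at 6819 and 23192 FPKM. A value of 0 here can be a failed estimate, which was not tested. Such a value enters each difference, count or test below that takes in Svs2 of homozygous mice. It also enters those that take in Svs4 or Svs5 of mouse 47, unless values of 0 are treated as missing.

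Over the 6 mice the highest value above 0 was 1000 times the lowest for Svs3b, 940 times for Svs3a, 914 times for Svs6 and 135 times for Pate4. For Svs2, Svs5 and Svs4 it was 57.6, 16.6 and 8.84 times, over the 4, 5 and 5 mice above 0. The median of the 7 genes was 135 times, beside 1.51 times over all 13818 tested genes. A range of at least 100 times was found for 4 of the 7 genes and for 0.362% of all tested genes.

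Mice of the same genotype differed widely in the wildtype and homozygous groups, and less in the heterozygous group. The 2 wildtype mice were at least 2-fold apart for all 7 genes, beside 6.3% of all tested genes, from 6.03-fold for Svs4 to 43.1-fold for Svs2. The 2 heterozygous mice were at least 2-fold apart for 3 of the 7, beside 2% of all, which were Svs3b at 3.06-fold, Svs3a at 2.76-fold and Svs6 at 2.31-fold. Their Svs2, Pate4, Svs4 and Svs5 differed by 1.26-fold or less. The 2 homozygous mice were at least 2-fold apart for 6 of the 7, beside 6.52% of all, with values of 0 entering for Svs4 and Svs5. Where both homozygous mice were above 0, the factor was 231 for Svs3b, 157 for Svs3a, 147 for Svs6 and 3.44 for Pate4.

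The genes fell into those that kept a near-constant ratio and those that did not. Svs3a was 1.51 and 1.5 times Svs3b in the wildtype mice, 1.92 and 2.13 times in the heterozygous mice, and 1.42 and 2.09 times in the homozygous mice. The ratio of Svs3a to Svs6, which share no window of 100 bases, lay between 0.261 and 0.352 in all 6 mice. The ratios varied by 1.5-fold and 1.35-fold while the genes themselves varied by 914 to 1000 times. Pearson's r of the log2 values was 0.999 between Svs3a and Svs6 over these 6 points, which come from the same libraries.

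Svs4 and Svs5 also varied together, with a ratio between 0.294 and 0.769 over the 5 mice with values above 0. Over mice 41, 37, 40 and 49 Svs5 varied by 1.24-fold, Pate4 by 1.57-fold and Svs4 by 1.73-fold, and Svs2 by 1.34-fold over the 3 of them above 0. Over the same mice Svs6 varied by 5.72-fold, Svs3a by 6.96-fold and Svs3b by 9.71-fold. The ratio of Svs3a to Pate4 therefore ran from 0.00950 in mouse 49 to 0.434 in mouse 47, a 45.7-fold spread. Svs5 and Svs6, whose promoters are shown above as near-identical, had a ratio between 24.4 and 130 over the 5 mice with both above 0, and in mouse 47 Svs5 was listed at 0 where Svs6 was at its highest.

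**Figure D2:**
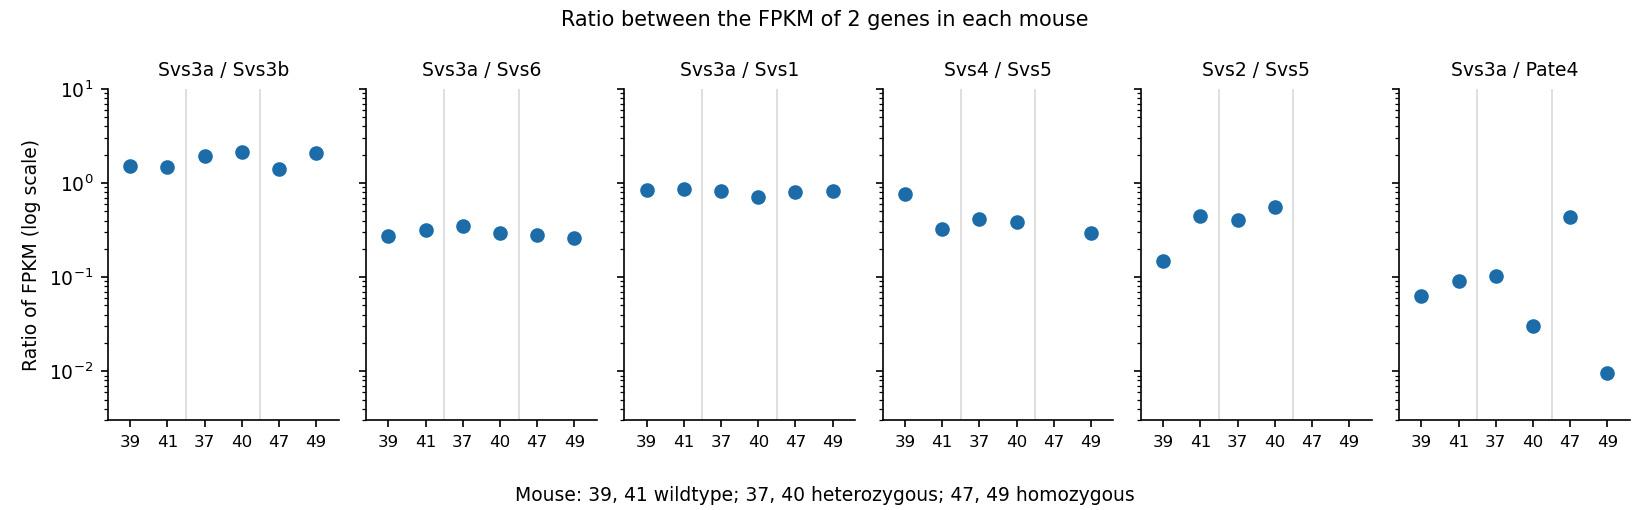
Ratio of the FPKM of 2 genes in each mouse on a log axis, 1 point per mouse and no point where either gene is listed at 0. Svs3a kept its ratio to Svs3b, Svs6 and Svs1 in all 6 mice, whereas its ratio to Pate4 spread 45.7-fold.

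Neighbouring genes outside the Svs genes had other levels. Within 100 kb of the span GENCODE lists 14 further genes, none inside it, and 11 of them were under 5 FPKM in every mouse. The nearest, Wfdc15b, which encodes a small protein with a WAP domain, was at 46.1 and 125 FPKM in wildtype mice 39 and 41, 198 and 195 FPKM in the heterozygous mice, and 342 and 180 FPKM in homozygous mice 47 and 49. It was lowest in mouse 39 and highest in mouse 47, as Svs6 was. Sdc4, a cell surface proteoglycan beyond the other end, lay between 48.1 and 87.5 FPKM, highest in mouse 39.

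**Figure D3:**
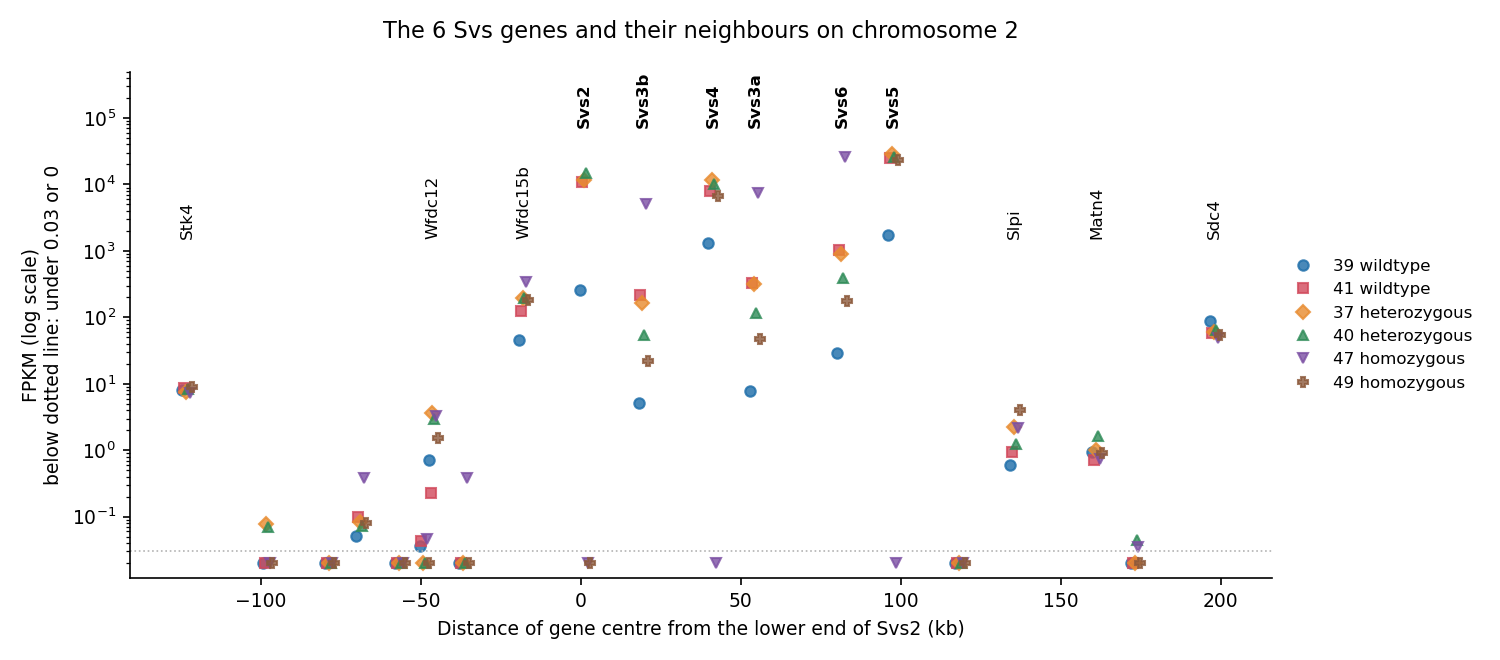
FPKM of each gene in each mouse on a log axis against the distance of the gene's centre from the lower end of Svs2 in kb, 1 symbol per mouse. Svs2, Svs4 and Svs5 stand above the 14 genes outside the Svs genes in the same mouse wherever they are not listed at 0. In mouse 47 their values of 0 lie beside high values of Svs3b, Svs3a and Svs6. In mouse 49 that of Svs2 lies beside 22.3, 46.5 and 178 FPKM of the same genes.

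The contrast of homozygous with wildtype mice asks which genes depend on having the mutant allele alone. Only Svs2 of the 7 genes passed the test at an adjusted p under 0.05, beside 0.384% of all tested genes, and this rests on its 2 values of 0. The fitted difference of Svs2 in log2(FPKM + 0.1) was -14.04 (SE 1.61, n = 2 mice each, adjusted p = 0.0477 from limma), and it is set by the constant added to 0 and is no measure of size. With a constant of 1 it was -10.72 and no longer passed (adjusted p = 0.0847 from limma). With values of 0 treated as missing, no homozygous value of Svs2 is left.

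Pate4 had a difference of 3.78 on that scale (SE 1.55, adjusted p = 0.281 from limma), and its 2 homozygous values lay above both wildtype values. Without wildtype mouse 39 the Pate4 difference was 1.37, and without mice 39 and 47 it was 0.47. Svs6 had a difference of 3.66 (SE 2.64, adjusted p = 0.503 from limma), with wildtype mouse 41 above homozygous mouse 49. Svs3a and Svs3b had differences of 3.53 and 3.33, with adjusted p-values of 0.525 and 0.568 from limma. For these 3 genes the difference rests on mice 47 and 39. Without mouse 47, that of Svs6 was 0.06, that of Svs3a -0.12 and that of Svs3b -0.59. Without wildtype mouse 39, that of Svs6 was 1.08, that of Svs3a 0.85 and that of Svs3b 0.65.

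Svs4 and Svs5 had differences of -6.97 (SE 4.79, adjusted p = 0.485 from limma) and -7.09 (SE 5.38, adjusted p = 0.521 from limma), through the value of 0 in mouse 47. With values of 0 treated as missing they were 1.06 and 1.82. At an unadjusted p under 0.05, 1 of the 7 genes passed, Svs2, beside 18% of all tested genes. The groups did not overlap for 2 of the 7, Svs2 and Pate4, beside 50% of all. Both results for Svs2 rest on its values of 0.

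Heterozygous mice were compared with wildtype mice to find effects of 1 mutant allele, against the same wildtype mice as above. None of the 7 genes passed, at an adjusted p (0 of the 7, beside 0% of all tested genes) or at an unadjusted p under 0.05 (0 of the 7, beside 6.87% of all, both from limma). The differences ran from 1.49 for Svs3b to 2.97 for Svs2, with standard errors of 1.55 to 5.38. Each standard error draws on the spread within all genotypes. Those of Svs2, Svs4 and Svs5 therefore also rest on values of 0 in homozygous mice, though these differences do not. Svs2, Svs4 and Svs5 were higher in both heterozygous mice than in both wildtype mice, 3 of the 7 genes beside 39% of all. Wildtype mouse 39 set the size of these differences. Without it, that of Svs2 was 0.26, that of Svs4 0.44 and that of Svs5 0.14, while that of Svs3a was -0.76, that of Svs3b -1.19, that of Svs6 -0.78 and that of Pate4 -0.027.

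Homozygous mice were also compared with heterozygous mice. At an adjusted p, 0 of the 7 genes passed, beside 0.0145% of all tested genes, and at an unadjusted p under 0.05 only Svs2 did, beside 6.39% of all (both from limma). Svs2, Svs4 and Svs5 were lower in both homozygous mice than in both heterozygous mice, and Pate4 was higher in both, which makes 4 of the 7 without overlap beside 42.1% of all. For Svs4 and Svs5 this holds also in mouse 49, where both were above 0, at 6819 and 23192 FPKM. The results for Svs2 rest on values of 0 in both homozygous mice.

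The test of the 3 genotypes together passed 0 of the 7 genes at an adjusted p, beside 0.101% of all tested genes, with 0.0709 for Svs2 and 0.526 for Pate4 as the lowest adjusted p-values from limma's F-test. At an unadjusted p under 0.05 it passed Svs2 alone, beside 11.5% of all. By the criterion the study used for its tests, an unadjusted p under 0.05 with at least a 1.5-fold difference, limma's F-test again passed Svs2 alone, beside 8.31% of all. Both passes of Svs2 rest on its values of 0. With an F-test on each gene alone, over genes above 0 in every mouse, this criterion passed 0 of the 7, and Svs2, Svs4 and Svs5 could not enter.

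**Figure D4:**
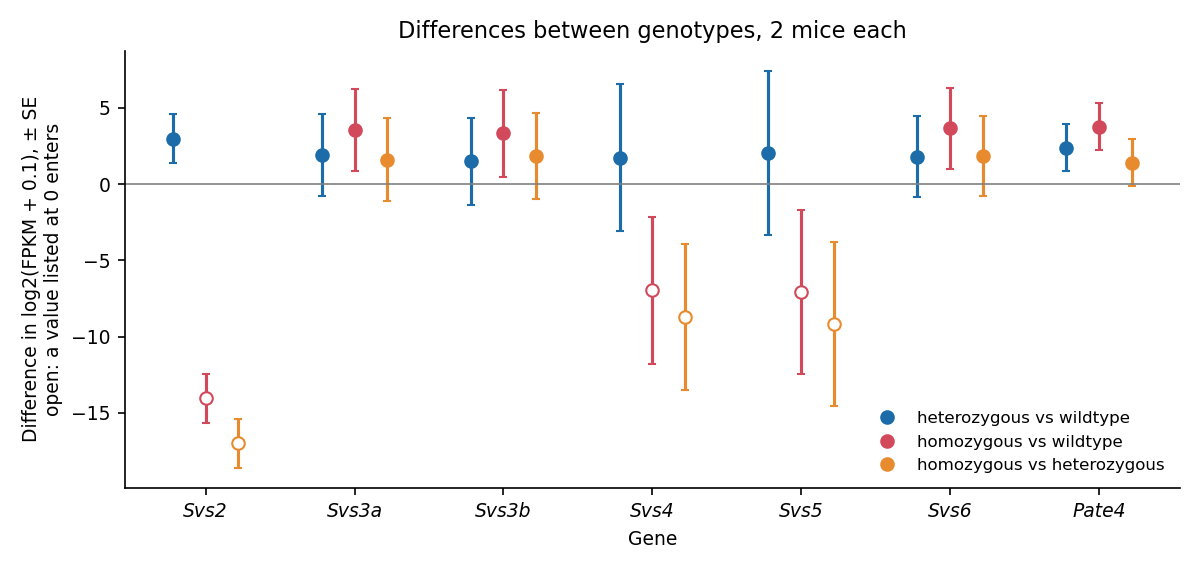
Difference between genotypes in log2(FPKM + 0.1) for each gene, with bars of 1 standard error from limma and 2 mice per genotype. Open symbols mark differences that a value of 0 enters. A gene has the same bar in every contrast, drawn from the spread within all genotypes. The bars at filled symbols of Svs2, Svs4 and Svs5 therefore also rest on values of 0. The bars of Svs3a, Svs3b and Svs6 are 2.64 to 2.84 long on each side, and those of Svs4 and Svs5 are longer still.

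Other genes known from the seminal vesicle were, like Svs3a, Svs3b and Svs6, lowest in mouse 39 and highest in mouse 47. Of 7 such genes 5 passed the filter, and this held for all 5. In mouse 49 Spinkl, at 586 FPKM, and Sval2, named after its values were seen, at 3.26 FPKM, were not below both heterozygous mice, unlike Svs3a, Svs3b and Svs6. Svs1, which encodes a secreted protein related to amine oxidases, was at 9.22 and 373 FPKM in the wildtype mice, 388 and 161 FPKM in the heterozygous mice, and 9136 and 56.2 FPKM in homozygous mice 47 and 49. Its ratio to Svs3a stayed within 1.21-fold over the 6 mice. Sva, the seminal vesicle autoantigen, ran from 5.59 FPKM in mouse 39 to 10734 FPKM in mouse 47, and Ceacam10 and Spinkl from 49.7 and 99.7 FPKM to 8633 and 7694 FPKM in the same mice. None of the 5 passed the test in a contrast of genotypes at an adjusted p, and 1 was higher in homozygous than in wildtype mice at an unadjusted p under 0.05, beside the 18% of all tested genes given above. Their median difference between homozygous and wildtype mice was 3.23 on the log2 scale, beside -0.041 over all tested genes.

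Genes of the prostate epithelium stood the other way in mouse 47. Pbsn, Msmb and Azgp1, defining genes of the labelled tissue, were above 0 in every mouse, but of the 7 prostate luminal genes 6 were lowest in mouse 47. Pbsn, which encodes probasin, was at 11192 and 11512 FPKM in the wildtype mice, 8360 and 8174 FPKM in the heterozygous mice, and 257 and 7329 FPKM in homozygous mice 47 and 49. Msmb was at 387 FPKM and Azgp1 at 186 FPKM in mouse 47, against 1683 to 4708 FPKM and 308 to 551 FPKM in the other mice. Sbp was at 19587 and 24775 FPKM in mice 41 and 37 and listed at 0 in the other 4. The summed FPKM of this list was 969 in mouse 47 and lay between 10537 and 35681 in the other 5 mice. The median difference of the 7 genes between homozygous and wildtype mice was -1.61, with 0 passing at an adjusted p, beside 0.384% of all tested genes, and 4 at an unadjusted p under 0.05, beside 18% of all. The part of these levels in the differences of the Svs genes and Pate4 was not tested.

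Tgm4, the transglutaminase that acts on the Svs proteins, was at 4819 and 9060 FPKM in wildtype mice 39 and 41, 6674 and 4124 FPKM in the heterozygous mice, and 131 and 3179 FPKM in homozygous mice 47 and 49. In mouse 39 the enzyme was therefore listed far above its substrates Svs2, Svs3a and Svs3b, and in mouse 47 far below Svs3a and Svs3b. Spink1, a protease inhibitor of the ejaculate, was at 11408 FPKM or above in all 6 mice and highest in mouse 39, at 47210 FPKM. Serpine2, a further inhibitor, and Plau, a protease, ran from 96.4 and 6.08 FPKM in mouse 39 to 363 and 115 FPKM in mouse 47. Of 8 genes listed for semen clotting and its inhibitors 6 were tested and 0 passed at an adjusted p in any contrast, with a median difference of 0.56 between homozygous and wildtype mice.

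Transcription factors of the Wolffian duct, from which the seminal vesicle forms, gave a mixed picture. Emx2 was at 0.956 and 11.2 FPKM in the wildtype mice, 11.3 and 15.6 FPKM in the heterozygous mice, and 26.2 and 15.7 FPKM in homozygous mice 47 and 49. Pax2 and Pax8, named after their values were seen, likewise ran from 0.447 and 0.392 FPKM in mouse 39 to 11.3 and 8.70 FPKM in mouse 47. In mouse 49 both were above the heterozygous mice, where Svs3a, Svs3b and Svs6 were below them. Hoxa10 and Hoxa11 stayed between 21.6 and 32.7 FPKM and between 8.46 and 11.5 FPKM. Of the 6 factors 0 passed at an adjusted p in any contrast, and the median difference between homozygous and wildtype mice was 1.38.

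**Figure D5:**
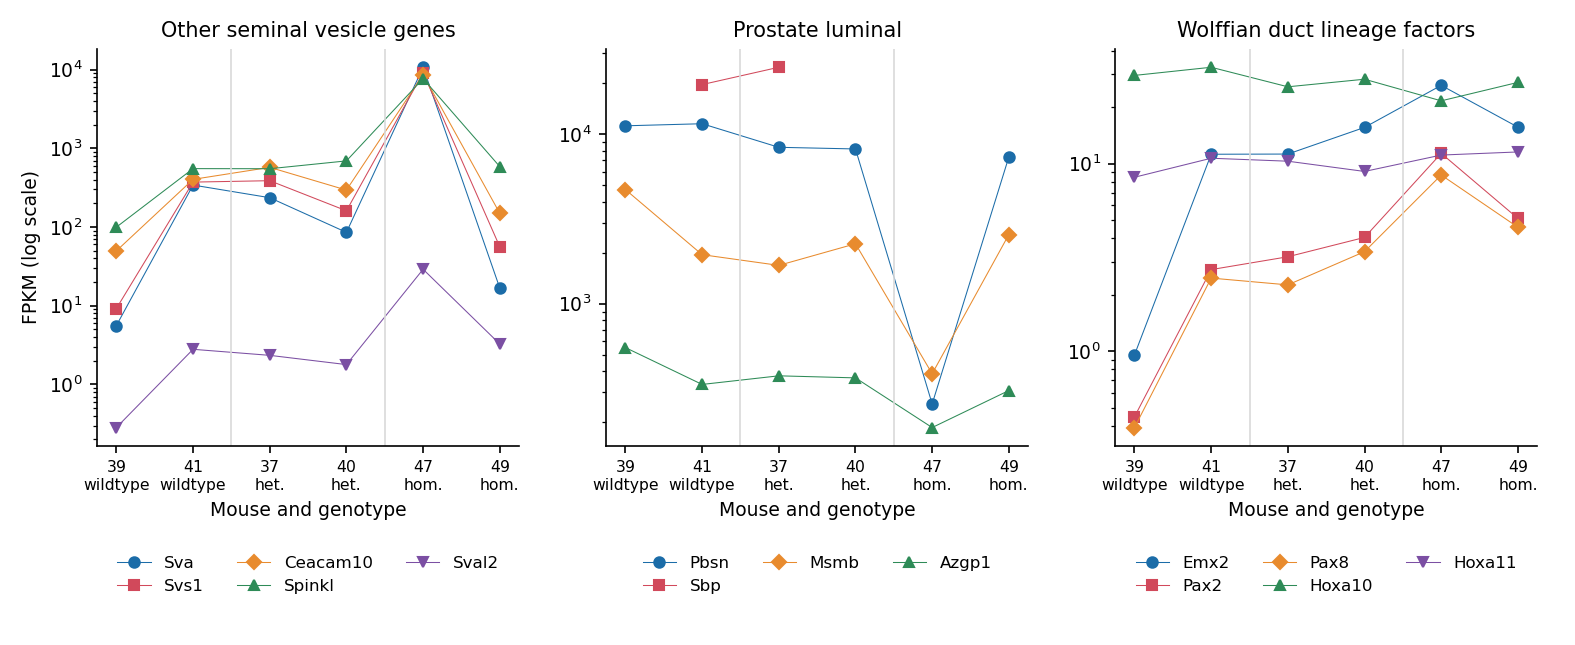
FPKM in each mouse on a log axis for genes of the seminal vesicle, the prostate epithelium and the Wolffian duct, 1 colour per gene, with lines joining mice only to guide the eye and no symbol for Sbp in the 4 mice where it is listed at 0. The seminal vesicle genes peak in mouse 47, where Pbsn, Msmb and Azgp1 are at their lowest.

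Of 21 genes with a WAP domain or near the Svs genes 7 were tested, and 0 passed at an adjusted p in any contrast. Among them Wfdc3 was highest in mouse 39, at 910 FPKM, and Wfdc2 lowest there, at 19.6 FPKM. Of the family of Pate4, Pate2 reached 1.60 FPKM at most and was not tested.

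Genes of other tissues were also examined. Of 5 genes of testis germ cells 4 were listed at 0 in all mice. Of the epididymis genes, Crisp1 was at 30.4 and 150 FPKM in wildtype mice 39 and 41. It was at 186 and 196 FPKM in heterozygous mice 37 and 40, and at 712 and 392 FPKM in homozygous mice 47 and 49. The other 4 epididymis genes were at 1.01 FPKM or below in every mouse. The summed FPKM of 4 urothelium genes lay between 205 in mouse 47 and 296 in mouse 39, but Upk2 and Upk3a, named after their values were seen, ran from 1.92 and 0.0838 FPKM in mouse 39 to 22.1 and 15.5 FPKM in mouse 47. That of 6 skeletal muscle genes lay between 1229 and 1868 in the wildtype mice and between 3513 and 4289 in the others, with 5 of the 6 higher than in wildtype mice at an unadjusted p under 0.05 in homozygous mice, beside 18% of all tested genes, and in heterozygous mice, beside 6.87%. Smooth muscle and adipocyte genes lay between 1512 and 2314 and between 156 and 412. No gene of these lists passed at an adjusted p in any contrast.

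The genes with the most similar pattern were sought for Svs3a, Svs3b, Svs6 and Pate4, the 4 genes above 0 in every mouse. Of 2540 genes compared over the 6 mice, 129 had a Pearson's r above 0.9 with their mean log2 level. Among the 8 most alike were Svs1 (r = 0.996), Ggt7 (r = 0.994), Abhd11os (r = 0.993), Cald1 (r = 0.992), Slco1a5 (r = 0.982), Pigc (r = 0.981) and Ckb (r = 0.981). Apart from Svs1, their levels moved less than those of Svs3a, Svs3b, Svs6 and Pate4. Ggt7 ran from 1.94 to 5.63 FPKM, Cald1 from 107 to 227 FPKM and Slco1a5 from 0.687 to 27.5 FPKM. The most opposite were Stra6, Defb10, Ncoa4 and Ccser1, with r from -0.986 to -0.982. Defb10, a defensin, fell from 22.0 FPKM in mouse 39 to 1.07 FPKM in mouse 47.

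Trp53 itself lay between 17.3 and 21.4 FPKM in the 6 mice, and since the mutant gene is still transcribed this level does not check the labels. The numbers of fragments relative to mouse 39, estimated from the most frequent ratio of the lowest values, lay between 0.787 in mouse 47 and 1.08 in mouse 49. That ratio was shared by 32 genes in mouse 37 and 119 in mouse 49, and the estimate was not checked. The part of depth in the spread of the 7 genes was not tested.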

How the data were processed

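Per the labels and the paper's methods, the authors made stranded TruSeq mRNA libraries from snap-frozen prostates and sequenced them as read pairs. The submitters' processing notes name bcl2fastq, HISAT, Cufflinks, Cuffnorm and mm10, and the annotation is not given in the sources used here. The authors deposited gene-level FPKM per mouse, already scaled for gene length and mapped fragments. The methods state only a minimum number of reads, so the depth of each library is unknown and no interval for counting error is given.

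Log2(FPKM + 0.1) of the 13818 genes with a mean of at least 1 FPKM entered a limma 3.58.1 model (R 4.3.3, genotype only, eBayes with intensity trend, Benjamini-Hochberg adjustment over all tested genes, threshold 0.05). The fit was tested on simulated data. Values of 0 were kept. Python 3.11.15 was used for ratios, correlations and motifs. The genes and lists were chosen with earlier results of these data known. Named were all 7 genes, of each list up to 4 genes with the highest mean FPKM, and the 8 most alike and 4 most opposite genes by Pearson's r among genes with a log2 range of at least 1. Some of these genes, and 1 list, are not reported here. Predicted and RIKEN identifiers were left out, and a symbol with several identifiers was read from the one with the highest mean. Positions and transcripts are from GENCODE release M21, which holds 47219 of the 47719 identifiers, and promoters from RefSeq.

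Alternatives were a pseudocount of 1 or 0.01, no filter or a mean of at least 5 FPKM, median scaling, quantile normalization, scaling without the 7 genes, no intensity trend, values of 0 as missing, an F-test on each gene alone, and leaving out each mouse. Leaving out mice 39 and 47 together, a 4-fold limit between mice, and likeness without mouse 47 were added after seeing the data.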

Additional observations from a re-analysis of the deposited data

How the results depend on the processing

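For homozygous against wildtype mice, the count of the 7 genes passing at an adjusted p of 0.05 was 1 (Svs2) and fell to 0 with a pseudocount of 1, no filter on low values, quantile normalization, no intensity trend or values of 0 as missing. Of all tested genes, 4 to 62 passed in those fits, beside 53 in the main fit. Counts from fits that leave out mice are not given, because they leave 1 mouse in a genotype. Without mouse 49 the difference was -15.0 for Svs4 and -16.0 for Svs5, from the values of 0 in mouse 47. A genotype left with 1 mouse was taken to vary like the others. The homozygous minus wildtype difference of Svs2 was -16.7 without mouse 39 and -11.3 without mouse 41. It stayed at -14.0 without mouse 37, 40, 47 or 49, and each of these rests on values of 0. The heterozygous minus wildtype difference of Svs2 was 0.26 without mouse 39 and 5.68 without mouse 41. Without mouse 49 the homozygous minus heterozygous difference was -16.7 for Svs4 and -18.1 for Svs5, from the values of 0 in mouse 47. For the 3 genotypes together a pseudocount of 0.01 gave 1 of the 7 genes, Svs2, in place of 0. Of all tested genes 17 passed there, beside 14 in the main fit. The F-test per gene, by the study's unadjusted criterion, gave 0 of the 7 and 923 of all genes. Without mice 39 and 47, the homozygous minus heterozygous difference of Svs2 was -17.0, from its value of 0 in mouse 49. With a 4-fold limit, 0 of the 7 genes differed between the heterozygous mice in place of 3, and the share of all tested genes at that limit was not taken. Why these counts moved was not tested beyond the construction of each fit.

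Of the single differences in log2(FPKM + 0.1), 23 changed sign. Over the fits that leave out 1 mouse, the homozygous minus wildtype difference ran from -0.12 to 7.18 for Svs3a, from -0.59 to 7.25 for Svs3b, from -15.0 to 1.06 for Svs4 and from -16.0 to 1.82 for Svs5. The heterozygous minus wildtype one ran from -0.76 to 4.60 for Svs3a, from -1.19 to 4.18 for Svs3b, from -0.78 to 4.37 for Svs6 and from -0.027 to 4.79 for Pate4. The homozygous minus heterozygous one ran from -2.04 to 5.25, from -2.08 to 5.76 and from -1.74 to 5.46 for Svs3a, Svs3b and Svs6. The lowest values of Svs3a, Svs3b and Svs6 arose without mouse 47 or, for heterozygous mice, without mouse 39. Without both mice, the differences of Svs3a, Svs3b and Svs6 were -2.80, -3.27 and -2.52 for homozygous minus wildtype, -0.76, -1.19 and -0.78 for heterozygous minus wildtype, and -2.04, -2.08 and -1.74 for homozygous minus heterozygous mice, and Pate4 was at -0.027 for heterozygous minus wildtype. With values of 0 as missing Svs4 and Svs5 were at 1.06 and 1.82 for homozygous minus wildtype, and Svs2 had no value. Scaling the mice by another sum or by their medians turned no sign. No paired analysis was possible because the labels give each mouse its own animal number. With 2 mice per genotype and unknown depth, smaller differences could not be told from the spread.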

Other observations

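When the likeness to Svs3a, Svs3b, Svs6 and Pate4 was taken over the 5 mice other than mouse 47, the 8 most alike genes were Emcn (r = 0.995), Hoxb5 (r = 0.993), Abhd11os (r = 0.993), Folr1 (r = 0.991), Wfdc2 (r = 0.990), Dkkl1 (r = 0.990), Svs1 (r = 0.989) and Aurkc (r = 0.988). Abhd11os and Svs1 were in both sets of 8. Emcn, which encodes an endothelial surface protein, was at 7.30 FPKM in mouse 47 and had an r of 0.51 over all 6 mice. Aurkc was at 0.0631 FPKM in mouse 47, below its 0.452 FPKM in mouse 39. Dkkl1 reached 73.8 FPKM in mouse 47 and Folr1, a folate receptor, 60.7 FPKM, each the highest of the 6 mice.

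Of the genes near those described, Sval2 was at 0.283 FPKM in mouse 39 and 29.0 FPKM in mouse 47, and its relative Sval3 was listed at 0 in all mice. Upk1a of the urothelium list ran from 114 to 204 FPKM, highest in mouse 39, where Upk2 and Upk3a were lowest.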
